A study of Mus musculus with 3 samples.

Results

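Nr2f2-high and Nr2f2-zero capillary endothelial cells were compared within Peyer's patches of EC-iCOUPOE mice, which carry an inducible Nr2f2 transgene. Capillary cells were taken with the same gate in each library. A cell needed at least 500 genes, 1500 to 5000 UMIs (unique molecular identifiers, each counting 1 captured transcript) and at most 10% mitochondrial UMIs. It needed at least 3 UMIs summed over the endothelial genes Pecam1, Cdh5, Egfl7, Emcn and Flt1, and at least 2 UMIs of the capillary gene Rgcc. Cells with more than 1 UMI of lymphatic genes (Mmrn1, Reln, Prox1), of venous genes (Selp, Adgrg6, Cytl1, Fxyd6), of high endothelial genes (Chst4, Gcnt1, Chst2, Enpp2) or of arterial genes (Gja5, Bmx), or with as many UMIs of fibroblast genes (Col1a1, Col1a2, Dcn, Pdgfra, Lum) as of endothelial genes, were left out. Of the 539 gated cells of the 2 EC-iCOUPOE libraries, 315 had 3 or more Nr2f2 UMIs and are called Nr2f2-high, and 72 had none and are called Nr2f2-zero. These 387 cells came from 6400 EC-iCOUPOE cell barcodes and 12480 barcodes in the whole series. The Nr2f2 counts and the gate genes chose the cells, so their values are descriptions and carry no test.

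Sorted Peyer's patch endothelium was profiled by droplet-based single-cell RNA sequencing in 3 libraries. EC-iCOUPOE replicates 1 and 2 carry the alleles CDH5(PAC)CreERT2;COUP-TFIIOE/OE, in which the Cdh5 promoter drives a tamoxifen-dependent Cre in endothelium and Cre switches on COUP-TFII. The control library is labelled WT, strain C57BL/6. Of its barcodes within the limits on genes, UMIs and mitochondrial share, 1380 of 3779 reached 3 endothelial UMIs. In replicate 1 this was 3306 of 3465 barcodes and in replicate 2 it was 904 of 1034. According to the labels, mice of all groups were 6 to 10 weeks old, received tamoxifen and were used 14 to 19 days later, and both sexes were pooled. The number of mice and the day of each library are not given in the sources used here, so the 2 replicates may differ in either. The edgeR p-values below rest on counting error and on a spread shared across genes in these 2 libraries. So does each SE of a fitted log2 ratio, which was computed back from the F statistic of the edgeR test. Neither measures how far the libraries disagree for a single gene. No p-value below measures the spread between mice.

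COUP-TFII, the nuclear receptor encoded by Nr2f2 (chr7:70351944-70366735, minus strand, GRCm38), is the best known determinant of venous endothelial identity and holds back the Notch programme that marks arteries. Capillaries lie between arteries and veins and normally carry little of it. In the gut, the homeodomain factor NKX2-3 supports expression of MAdCAM-1, the mucosal addressin to which lymphocytes bearing the integrin α4β7 attach when they leave the blood in venules of Peyer's patches.

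The promoters of Madcam1, Cxcl10 and Lrg1 are shown because they were called higher in Nr2f2-high cells in every alternative that kept both libraries and a library term, and because their windows hold the letters TGACCC. Icam1, which was called as often, is not shown, since its window does not hold them. The choice was made after these results were seen. Each window runs from 250 bases before to 50 bases after the RefSeq transcription start (GRCm38.p6), 5′ to 3′ on the strand of the gene. Capitals mark TGACCC, a form of the letters to which COUP-TF proteins bind, or GGGTCA where TGACCC lies on the opposite strand. The windows are chr10:79664309-79664608 (plus strand) for Madcam1, chr5:92348840-92349139 (minus strand) for Cxcl10 and chr17:56121897-56122196 (minus strand) for Lrg1.
Madcam1: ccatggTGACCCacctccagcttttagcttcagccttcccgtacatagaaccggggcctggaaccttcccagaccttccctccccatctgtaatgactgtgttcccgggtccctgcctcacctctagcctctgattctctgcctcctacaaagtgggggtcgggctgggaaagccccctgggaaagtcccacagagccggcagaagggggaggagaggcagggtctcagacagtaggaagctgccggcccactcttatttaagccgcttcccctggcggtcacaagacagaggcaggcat
Cxcl10: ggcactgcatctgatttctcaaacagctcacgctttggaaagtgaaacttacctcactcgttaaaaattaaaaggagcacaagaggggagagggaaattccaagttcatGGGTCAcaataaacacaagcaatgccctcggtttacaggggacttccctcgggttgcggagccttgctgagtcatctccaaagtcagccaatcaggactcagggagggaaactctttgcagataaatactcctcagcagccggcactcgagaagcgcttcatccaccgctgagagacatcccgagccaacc
Lrg1: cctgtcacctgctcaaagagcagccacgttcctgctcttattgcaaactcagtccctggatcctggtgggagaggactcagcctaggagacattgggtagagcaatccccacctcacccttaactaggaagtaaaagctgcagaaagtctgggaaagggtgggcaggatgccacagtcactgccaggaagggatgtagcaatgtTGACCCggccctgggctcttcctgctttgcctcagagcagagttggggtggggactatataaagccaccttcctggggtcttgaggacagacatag

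The letters TGACCC were searched on both strands of these windows. They stood in the windows of Madcam1, Cxcl10 and Lrg1, and also in those of Car4 and Efnb2, which were lower in Nr2f2-high cells. They were not found in the windows of Icam1, Amigo2, Ccl21a, Socs1, Cxcl12, Scgb3a1, Esm1 or Igfbp3. Over 27025 promoters, 13.5% held TGACCC, and over the 2668 tested genes with a promoter the share was 14.1%. It was found in 15 of the 60 genes called higher and in 15 of the 74 genes called lower (20.3%) that had a promoter in the table. Another form of the letters to which COUP-TF proteins bind, TGACCT, stood in 16.04% of all promoters and in 12.3% of those of tested genes. It was found in 4 of the 60 genes called higher (6.67%) and in 10 of the 74 called lower (13.5%). A match describes letters and is not a shown binding site, and sequence farther upstream than 250 bases was not searched.

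Nr2f2 was detected across the capillary gate of both EC-iCOUPOE libraries and hardly at all in the control library. Replicate 1 held 216 Nr2f2-high cells, 71 cells with 1 or 2 UMIs and 33 Nr2f2-zero cells. Replicate 2 held 99, 81 and 39 cells of these kinds. In the control library 101 of 105 gated cells had no Nr2f2 UMI and 1 had 3 or more. Gene levels given below for the control library are those of these 101 cells. The Nr2f2-high cells carried a median of 6 Nr2f2 UMIs (highest 16) in replicate 1 and a median of 4 (highest 11) in replicate 2. That is 2152 and 1762 CPM, that is UMIs scaled to a library sum of 1e6. UMIs from the transgene and from the mouse's own gene cannot be told apart in these counts.

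A count of 0 is in part a matter of sampling, so the Nr2f2-zero group can hold cells that carried Nr2f2 mRNA. The Nr2f2-zero cells were also the shallower ones, with a median of 2117 UMIs in replicate 1 and 2176 in replicate 2.

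**Figure D1:**
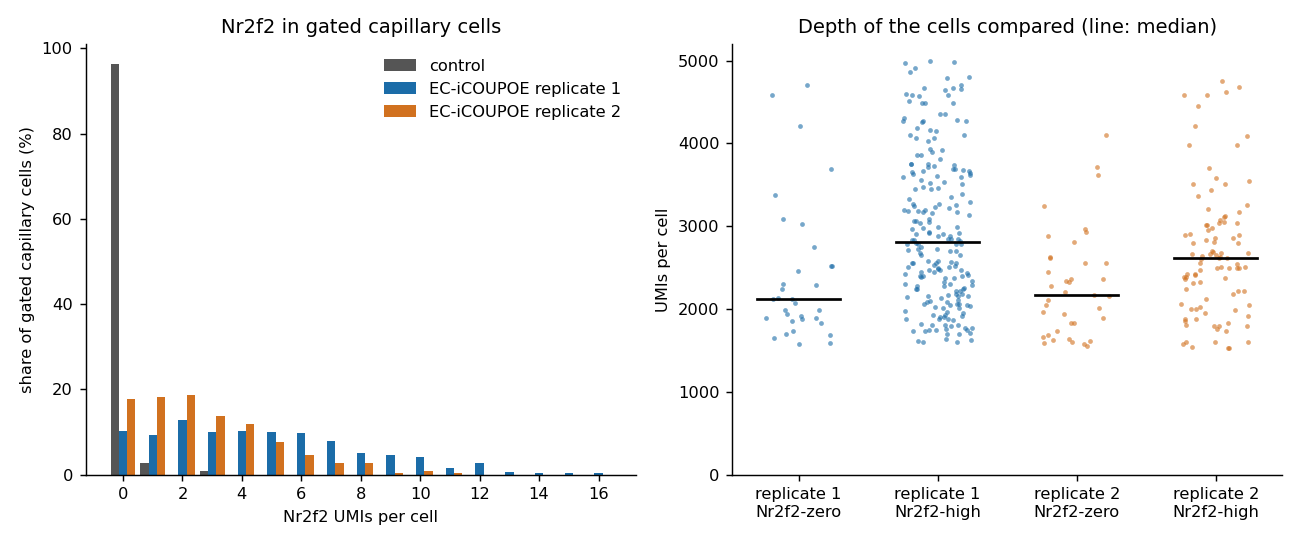
Left, the share of gated capillary cells (%) by Nr2f2 UMIs per cell in the control library (grey) and in EC-iCOUPOE replicates 1 (blue) and 2 (orange); 101 of 105 control cells stand at 0. Right, the UMIs per cell of each Nr2f2-zero and Nr2f2-high cell, with black lines at the medians, which are 2117 and 2813 in replicate 1 and 2176 and 2613 in replicate 2.

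The 2 groups also differed in depth and in makeup. The median was 2813 UMIs in Nr2f2-high and 2117 in Nr2f2-zero cells of replicate 1, and 2613 against 2176 in replicate 2. Female cells, told from male ones by Xist against Y-linked genes, were 60.7% of the assignable Nr2f2-high cells and 31.3% of the Nr2f2-zero cells of replicate 1, and 74.1% and 61.1% in replicate 2. Rgcc itself was present at 1174 CPM in Nr2f2-high and 1575 in Nr2f2-zero cells of replicate 1, and at 1584 and 1850 CPM in replicate 2. Whole libraries held 17417260 UMIs in 4959 barcodes (replicate 1), 3548983 UMIs in 1441 barcodes (replicate 2) and 17341398 UMIs in 6080 barcodes (control). The control library and replicate 2 shared 12 barcode sequences, none of them in the gate, and no other pair of libraries shared one. Parts played by depth or sex in the differences between the groups were not tested beyond the alternatives given in the closing section.

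Markers of other cell types were sparse. Of 16 lymphocyte and plasma cell markers, 15 or 16 had 0 UMIs in each of the 4 groups of cells, and of 10 myeloid markers 9 or 10 had none. Pericyte and smooth muscle markers summed to 415 CPM in Nr2f2-high and 857 CPM in Nr2f2-zero cells of replicate 1, and to 30.1 and 11.2 CPM in replicate 2, with 2 to 9 of 10 markers at 0. Fibroblast markers summed to 69.0 and 12.6 CPM in replicate 1 and to 15.1 and 11.2 CPM in replicate 2, with 5 to 11 of 12 at 0. Epithelial markers were higher in the Nr2f2-high sums, at 70.5 against 12.6 CPM and 113 against 22.4 CPM, with 5 to 12 of 13 at 0. Haemoglobin genes reached 82.8 CPM in the Nr2f2-high cells of replicate 2, against 22.4 CPM, and stood at 0 and 12.6 CPM in replicate 1. Glial markers were between 0 and 22.4 CPM, with 5 to 7 of 7 at 0. The part of these markers in the differences described here was not tested apart from an alternative without the cells that carried them.

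To ask which genes differed with Nr2f2, UMIs were summed over the Nr2f2-high and over the Nr2f2-zero cells of each library, and the 4 sums were tested with edgeR's quasi-likelihood test with the library as a term. Of 3358 genes with at least 50 UMIs over the 4 sums, 78 were called higher in Nr2f2-high cells (2.32%) and 92 lower (2.74%), 5.06% in either direction, at an adjusted p under 0.05. The ratio had the same direction in both libraries for 77 of the higher and 90 of the lower genes. In each direction 62 called genes differed by 2-fold or more. The counting intervals of both libraries excluded no change, in the same direction, for 53 genes higher (1.58%) and 74 lower (2.2%). For 34 of the 78 higher genes, the Nr2f2-zero cells of both libraries together held fewer than 10 UMIs, so that these ratios are imprecise. Outside Nr2f2, the Nr2f2-high sums held 638131 and 265752 UMIs and the Nr2f2-zero sums 79349 and 89194. A gene could thus pass the limit of 50 UMIs through the Nr2f2-high cells alone, which favours genes that are high there. A limit of 50 on the mean CPM of the 4 sums, which weighs them equally, gave 27 genes higher and 29 lower. Under it, 72 of the 78 higher and all 92 lower genes were still tested. Most of the lost calls were therefore not genes that this limit removed, and why they were lost was not tested.

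The number of called genes depended strongly on how the spread was estimated. With 4 sums and the library as a term, 1 residual degree of freedom remains, and edgeR took a single spread for all genes. DESeq2 on the same sums called 7 genes higher and 10 lower, and limma-voom 45 and 137. Counting at most 5 UMIs of a gene per cell, which limits the weight of single cells, gave 11 higher and 26 lower. Without the library as a term edgeR called none (183 genes at an unadjusted p under 0.05), and on sums split by sex it called 10 higher and 16 lower without replicate 1 and none without replicate 2 (70 genes at an unadjusted p under 0.05). No gene was called in the opposite direction in any of these fits. Madcam1, Lrg1, Cxcl10 and Icam1 (higher) and Cxcl12, Esm1, Cd81 and Cst3 (lower) were called in every one of the 21 alternatives with both libraries and a library term in which they were tested (17 for Esm1, 21 for the others). Apoe and Fabp5 lost their call in 1 of the 21, the sums per library and sex. Every called gene outside these 8 lost its call in at least 1 alternative. Counts of alternatives given below refer to these 21. The alternative without doublet calls held the same cells as the main fit, so its calls were fixed in advance and it is no separate check.

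**Figure D2:**
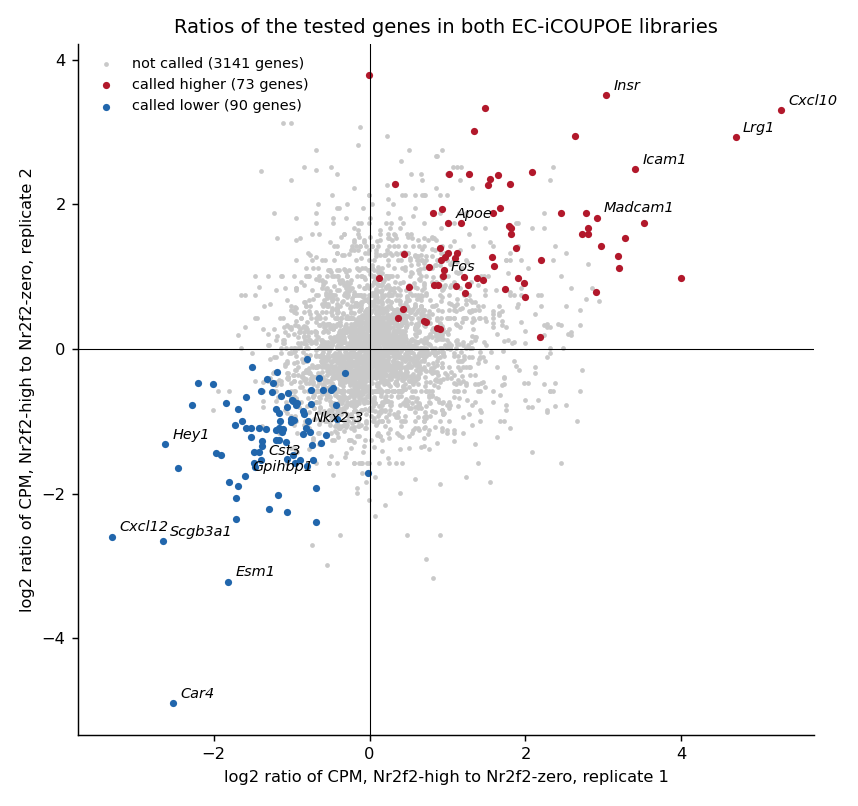
Log2 ratio of CPM in Nr2f2-high to Nr2f2-zero cells in replicate 1 (horizontal) and replicate 2 (vertical) for the tested genes with UMIs in all 4 sums; red and blue points were called higher and lower by edgeR. Cxcl10, Lrg1 and Icam1 lie at the upper right and Cxcl12, Scgb3a1 and Car4 at the lower left.

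Madcam1, the mucosal addressin (chr10:79664559-79668537, plus strand, GRCm38), was higher in Nr2f2-high than in Nr2f2-zero cells in both libraries. Replicate 1 held 1151 Madcam1 UMIs in Nr2f2-high cells (1804 CPM) and 19 in Nr2f2-zero cells (239 CPM, 95% Poisson interval 144 to 374). Replicate 2 held 755 (2841 CPM) and 72 (807 CPM, 632 to 1017). In the control library, gated cells without Nr2f2 held 9 UMIs (38.4 CPM). Both Nr2f2-high sums thus stood above both Nr2f2-zero sums, and the latter above the control cells without Nr2f2. Between the 2 groups, the log2 ratio was 2.91 (counting interval 2.26 to 3.65) in replicate 1 and 1.82 (1.47 to 2.18) in replicate 2. Both libraries agreed in direction and differed in size beyond their counting intervals. The gated control cells with an Nr2f2 UMI held 8, 0, 18 and 35 Madcam1 UMIs. Both transcripts therefore also occurred together in the control library. Whether these were capillary cells or venous or high endothelial cells that passed the gate was not tested. The same holds for the Nr2f2-high cells of the EC-iCOUPOE libraries. The fitted log2 ratio was 2.18 (SE 0.17), a 4.55-fold difference, with adjusted p = 4.33e-32 by edgeR and adjusted p between 1.72e-48 and 0.00255 over the 21 alternatives. The log2 ratio ranged from 1.38, where cells were thinned to 1500 UMIs before the groups were taken, to 2.75 in cells with over 2500 UMIs.

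The share of cells with a Madcam1 UMI gave the same order once each cell had been thinned to 1500 UMIs. In replicate 1 it was 76.9% of Nr2f2-high cells, 57.7% of cells with 1 or 2 Nr2f2 UMIs and 15.2% of Nr2f2-zero cells (Clopper-Pearson interval 5.11 to 31.9). In replicate 2 it was 81.8%, 65.4% and 28.2% (15.0 to 44.9). In the control library 2.97% of cells without Nr2f2 had one (0.617 to 8.44). Without thinning, the Nr2f2-high shares were 82.9% and 86.9% and the Nr2f2-zero shares 18.2% and 28.2%. Lymphocyte-like cells, which should lack the gene, were too few to give a background from free RNA. A Madcam1 UMI was seen in none of 5 such cells of replicate 1 (upper bound 52.2%), in none of the 1 cell of replicate 2 and in 1 of 9 cells of the control library, at median depths of 3222, 2586 and 2386 UMIs. These intervals cover counting error only.

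The other genes of high endothelium and addressin decoration gave a mixed picture. Of 20 listed genes, 7 had enough UMIs to be tested, and 2 rose (Madcam1 and Ccl21a) and 2 fell (Podxl and Nxpe4). This is 28.6% in each direction, against 2.32% higher and 2.74% lower over all tested genes. The median fitted log2 ratio was -0.20 against 0.02 over all tested genes. Ccl21a, a chemokine for CCR7-bearing lymphocytes that lymphatic endothelium makes in quantity, held 34 and 1 UMIs in the Nr2f2-high and Nr2f2-zero cells of replicate 1 and 114 and 7 in replicate 2. Its difference rested on single cells, since 1 cell held 27 of the 34 UMIs and another 96 of the 114. Without these the Nr2f2-high levels were 11.02 and 68.7 CPM, against 12.6 and 78.5 CPM in all Nr2f2-zero cells. Podxl, which encodes the sialomucin podocalyxin, fell by 0.86 on the log2 scale (SE 0.24, adjusted p = 0.011 by edgeR) and was called in 10 of 21 alternatives. St6gal1, a sialyltransferase that completes a CD22 ligand on high endothelium, was too sparse to test, with 6 and 4 UMIs in Nr2f2-high and 0 and 3 in Nr2f2-zero cells.

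Nxpe4 set both groups of the EC-iCOUPOE libraries apart from the gated control cells without Nr2f2. It held 28 and 14 UMIs in Nr2f2-high cells and 13 and 13 in Nr2f2-zero cells of the 2 replicates. These control cells held 0, where 3 counts are 12.8 CPM. In CPM this was 43.9 and 52.7 in the Nr2f2-high and 164 and 146 in the Nr2f2-zero cells. The gene was therefore lower in the Nr2f2-high cells (log2 ratio -1.71, SE 0.41, adjusted p = 0.00148 by edgeR, called in 8 of 12 alternatives). It was detected in both EC-iCOUPOE libraries and not in the gated control cells without Nr2f2. The other cells of the control library, among them those left out as high endothelial, were not examined for it.

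Nkx2-3, the gut homeodomain factor, did not run parallel to Madcam1. It stood at 379 CPM in Nr2f2-high and 668 in Nr2f2-zero cells of replicate 1, at 290 and 617 CPM in replicate 2 and at 658 CPM in the control library. Both Nr2f2-high sums lay below all 3 others. The log2 ratio was -0.95 (SE 0.23, adjusted p = 0.0015 by edgeR), and the gene was called in 14 of 21 alternatives, 1 of which kept cells by an Nkx2-3 UMI and so is no separate check. The call was lost in depth-matched cells (log2 ratio -0.68, adjusted p = 0.0956), in groups taken after thinning (-0.61, adjusted p = 0.233), by DESeq2 (adjusted p = 0.719) and on sums per library and sex (adjusted p = 0.466), and over all 21 the adjusted p ranged from 0.000344 to 0.719. Among 25 tested endothelial transcription factors, of 40 listed, Nkx2-3 alone was called. This is 4% called lower, near the 2.74% over all tested genes. The median log2 ratio of the 25 was -0.13. Klf2, a flow-responsive factor, gave a log2 ratio of -0.13 (SE 0.13) and Sox18 one of -0.63 (SE 0.24, adjusted p = 0.12), both without a call.

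**Figure D3:**
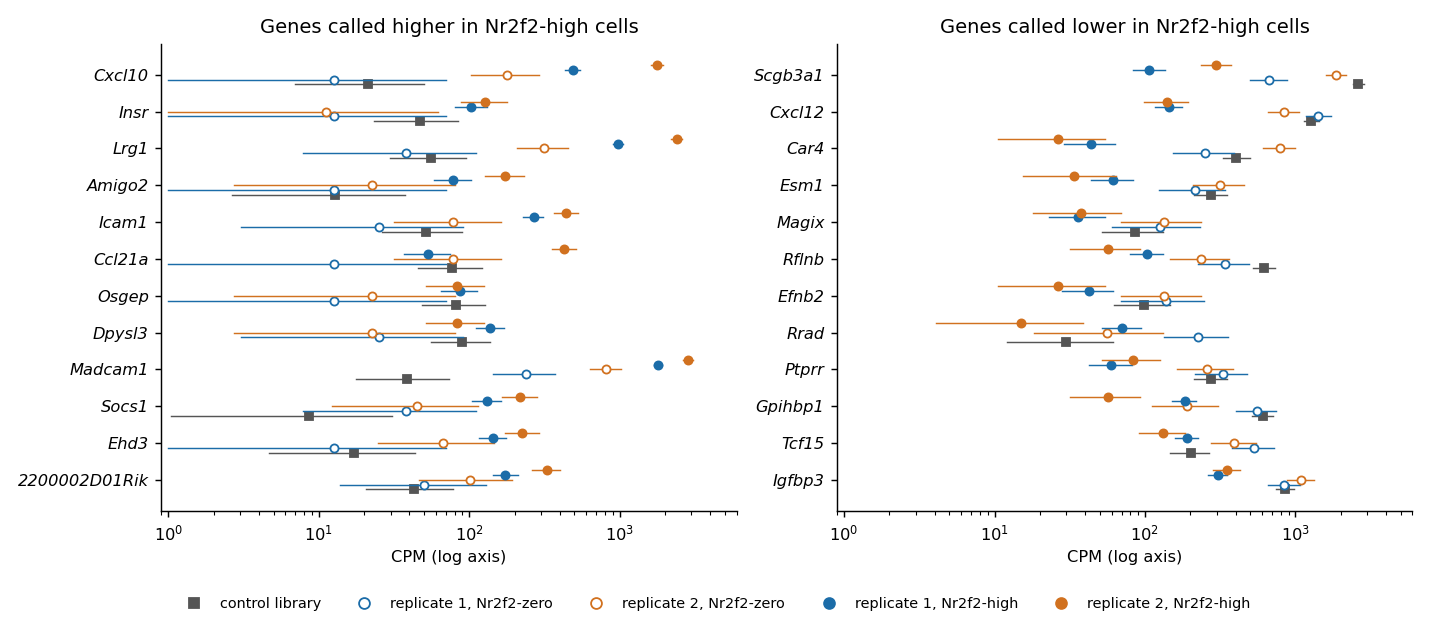
CPM (log axis) of the 12 genes with the largest increases and the 12 with the largest decreases by the smaller of their ratios in the 2 libraries, with 95% Poisson intervals cut at 1 CPM. Filled circles are Nr2f2-high and open circles Nr2f2-zero cells of replicates 1 (blue) and 2 (orange), and grey squares are control cells without Nr2f2. For Cxcl12, Scgb3a1 and Esm1 the open circles lie nearer the grey squares than the filled ones do.

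Genes of venules and postcapillary endothelium were called only upwards. Of 23 listed, 13 were tested, 3 rose (Lrg1, Icam1 and Aplnr) and none fell. This is 23.1% called higher, against 2.32% over all tested genes. The median log2 ratio was 0.83 against 0.02 over all tested genes. Ackr1 and Selp, which mark venules most clearly, were all but missing in these cells: Ackr1 had 14 and 2 UMIs in the Nr2f2-high and 0 and 1 in the Nr2f2-zero cells, Vcam1 at most 2 in any group, and Sele none. Selp was used by the gate. Vwf, the von Willebrand factor gene, gave a log2 ratio of 0.85 (SE 0.29, adjusted p = 0.058) and Csrp2 one of 0.83 (SE 0.28, adjusted p = 0.05029), and neither was called.

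Lrg1 encodes a secreted leucine-rich glycoprotein of venules and inflamed endothelium (chr17:56119678-56122001, minus strand, GRCm38). Replicate 1 held 624 UMIs in Nr2f2-high (978 CPM) and 3 in Nr2f2-zero cells (37.8 CPM, 7.80 to 110), a log2 ratio of 4.69 with a counting interval of 3.14 to 6.97. Replicate 2 held 635 (2389 CPM) and 28 (314 CPM), a ratio of 2.93 (2.38 to 3.53). The control library stood at 55.5 CPM, between the Nr2f2-zero sums. The fitted ratio was 3.28 (SE 0.24), or 9.70-fold, with adjusted p = 4.59e-39 by edgeR and at most 0.0142 over the 21 alternatives, where the log2 ratio ranged from 2.02 (groups taken after thinning) to 5.29.

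Icam1, the adhesion receptor for the lymphocyte integrin LFA-1, held 171 and 117 UMIs in the Nr2f2-high cells (268 and 440 CPM) and 2 and 7 in the Nr2f2-zero cells (25.2 and 78.5 CPM), with 51.3 CPM in the control library. Its fitted log2 ratio was 2.75 (SE 0.41, adjusted p = 5.19e-09 by edgeR, at most 0.0303 over the 21 alternatives, with log2 ratios of 1.97 to 3.18). After thinning, 21.8% and 34.3% of Nr2f2-high cells had an Icam1 UMI, against 6.06% and 10.3% of Nr2f2-zero cells and 5.94% of control cells. Aplnr, the apelin receptor of veins and sprouting endothelium, was 514 against 113 CPM in replicate 1 but 452 against 404 CPM in replicate 2. Its call therefore rested on replicate 1, where the log2 ratio was 2.18, compared with 0.16 in replicate 2.

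Interferon-stimulated genes were also called only upwards. Of 26 listed, 20 were tested, 8 rose and none fell. This is 40% called higher, against 2.32% over all tested genes. Of the 20 fitted log2 ratios 13 lay above 0 and 7 below, with a median of 0.54. With at most 5 UMIs of a gene per cell, and likewise by DESeq2, Cxcl10 was the only one of the 20 still called, and on sums per library and sex Cxcl10 and Ifit1 were. Cxcl10, a chemokine that draws CXCR3-bearing T cells (chr5:92346638-92348889, minus strand, GRCm38), held 311 and 469 UMIs in Nr2f2-high cells (487 and 1765 CPM). The Nr2f2-zero cells held 1 and 16 UMIs (12.6 and 179 CPM) and the control library 5 (21.4 CPM). In replicate 1 the log2 ratio was 5.27 with an interval of 2.78 to 10.58, and in replicate 2 it was 3.30 (2.58 to 4.12). The fitted ratio was 3.56 (SE 0.30, adjusted p = 5.55e-29 by edgeR, at most 0.0103 over the 21 alternatives, with log2 ratios of 2.50 to 6.23).

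Cxcl10 was carried by a minority of cells. After thinning it was found in 19.0% and 47.5% of Nr2f2-high cells, in 3.03% and 10.3% of Nr2f2-zero cells and in 2.97% of control cells. In the Nr2f2-zero cells of replicate 2, 1 cell held 12 of the 16 UMIs, and without it the level there was 46.4 CPM. The remaining called genes were Ifit1 and Ifit3, which bind viral RNA, the ubiquitin-like Isg15, the transcription factor Irf1, the GTPase Iigp1, Ifi27l2a and Socs1. Their fitted log2 ratios ran from 0.95 (Irf1) to 2.27 (Ifit1). Socs1, an inhibitor of cytokine signalling, stood at 132 and 218 CPM in Nr2f2-high, 37.8 and 44.8 CPM in Nr2f2-zero and 8.54 CPM in control cells, with a log2 ratio of 2.07 (SE 0.47) and a call in 12 of 19 alternatives.

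Immediate early genes, which also respond to the dissociation of tissue, moved with the Nr2f2-high group. Of 17 tested, 7 rose (Fos, Junb, Egr1, Atf3, Ier2, Zfp36 and Socs3) and 1 fell (Hspa1a), with a median log2 ratio of 0.52. The shares called were 41.2% higher and 5.88% lower, against 2.32% and 2.74% over all tested genes. Fos stood at 3791 and 5979 CPM in Nr2f2-high cells, 1966 and 2982 CPM in Nr2f2-zero cells and 1798 CPM in control cells, a log2 ratio of 0.97 (SE 0.12, adjusted p = 1.64e-14 by edgeR). Egr1 gave a log2 ratio of 1.26 (SE 0.19) and Socs3 one of 0.96 (SE 0.17). The heat shock gene Hspa1a was lower in replicate 2 only, at 429 against 1413 CPM, and similar in replicate 1, at 1257 and 1273 CPM. With at most 5 UMIs of a gene per cell, 2 of the 17 were called (Atf3 and Socs3), by DESeq2 2 (Egr1 and Fos) and on sums per library and sex 1 (Socs3). Their part in the differences of Madcam1, Lrg1 or Cxcl10 was not tested.

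Notch pathway and arterial genes were called only downwards. Of 29 listed, 15 were tested, 6 fell (Hey1, Efnb2, Nrp1, Gja4, Cxcl12 and Edn1) and none rose. This is 40% called lower, against 2.74% over all tested genes, and the median log2 ratio was -0.71. With at most 5 UMIs of a gene per cell, Cxcl12 and Nrp1 were still called, and by DESeq2, as on sums per library and sex, Cxcl12 alone. Among the ligands and receptors of the pathway no call was made: Dll4 gave a log2 ratio of -0.30 (SE 0.60), Jag1 one of -0.71 (SE 0.57) and Notch1 one of -0.30 (SE 0.39), with adjusted p of 0.917, 0.689 and 0.821 by edgeR. Sox17, an arterial transcription factor, stood at 342 and 395 CPM in Nr2f2-high and 328 and 639 CPM in Nr2f2-zero cells and was not called either.

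Hey1, the Notch-induced repressor, held 17 and 12 UMIs in Nr2f2-high and 13 and 10 in Nr2f2-zero cells. Relative to depth this was 26.6 against 164 CPM in replicate 1 and 45.2 against 112 CPM in replicate 2, with 218 CPM in the control library. The log2 ratio was -2.62 (-3.75 to -1.46) in replicate 1 and -1.31 (-2.65 to 0.06) in replicate 2, so that the counting interval of replicate 2 reached no change. The fitted ratio of -2.03 (SE 0.50, adjusted p = 0.00203 by edgeR) was called in 6 of the 9 alternatives in which the gene had enough UMIs.

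Cxcl12, the chemokine for CXCR4 that arterial and capillary endothelium makes (chr6:117168535-117181367, plus strand, GRCm38), gave the firmest decrease. It held 92 and 37 UMIs in Nr2f2-high cells (144 and 139 CPM) and 113 and 75 in Nr2f2-zero cells (1424 and 841 CPM), with 1277 CPM in the control library. The Nr2f2-zero cells were near the control level in replicate 1. In replicate 2 they were below it, with a log2 ratio of -0.60 (-0.99 to -0.23). Both Nr2f2-high sums lay far below the Nr2f2-zero and control cells. The fitted log2 ratio was -3.03 (SE 0.23, 8.19-fold lower, adjusted p = 2.86e-35 by edgeR, at most 0.00134 over the 21 alternatives). A Cxcl12 UMI was found after thinning in 14.8% and 14.1% of Nr2f2-high cells, in 63.6% and 59.0% of Nr2f2-zero cells and in 75.2% of control cells.

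Of the other arterial genes, Efnb2, which encodes the arterial ligand ephrin-B2, stood at 42.3 and 26.3 CPM in Nr2f2-high, 139 and 135 CPM in Nr2f2-zero and 98.3 CPM in control cells. The VEGF co-receptor Nrp1 stood at 338 and 309 CPM, 756 and 740 CPM and 965 CPM in the same order. The connexin gene Gja4 fell by 1.47 (SE 0.31) and the endothelin gene Edn1 by 1.78 (SE 0.41) on the log2 scale. For these 4 genes, each Nr2f2-high sum lay below each Nr2f2-zero sum.

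Genes of capillary endothelium fell more often than they rose, although the cells had been chosen as capillary by Rgcc. Of 29 listed, 18 were tested, 8 fell and 1 rose, with a median log2 ratio of -0.54 and 16 of the 18 ratios below 0. The shares called were 44.4% lower and 5.56% higher, against 2.74% and 2.32% over all tested genes. The list was chosen with earlier results of these data known, so its direction is not independent evidence. With at most 5 UMIs of a gene per cell, 6 were called lower and none higher. DESeq2 called 2 lower (Fabp5 and Scgb3a1), and sums per library and sex gave 2 lower (Scgb3a1 and Tcf15). The list summed to 23110 CPM in Nr2f2-high and 30687 CPM in Nr2f2-zero cells of replicate 1, 18258 and 23466 CPM in replicate 2 and 24504 CPM in control cells. Fabp4, a fatty acid carrier and the most abundant of those named here, gave a log2 ratio of -0.14 (SE 0.09, adjusted p = 0.507) and Plvap, of the fenestral diaphragm, one of -0.20 (SE 0.10, adjusted p = 0.365).

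Car4, which encodes the carbonic anhydrase of capillary surfaces (chr11:84957786-84966044, plus strand, GRCm38), held 28 and 7 UMIs in Nr2f2-high cells (43.9 and 26.3 CPM). The Nr2f2-zero cells held 20 and 70 (252 and 785 CPM) and the control library 95 (406 CPM). The log2 ratio was -2.52 (-3.40 to -1.62) in replicate 1 and -4.90 (-6.26 to -3.78) in replicate 2. Both libraries agreed in direction and differed in size beyond their counting intervals. The fitted ratio was -3.55 (SE 0.30), with a call in 18 of 20 alternatives.

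Scgb3a1, a secretoglobin abundant in the control capillaries at 2623 CPM, stood at 668 and 1872 CPM in Nr2f2-zero and at 107 and 297 CPM in Nr2f2-high cells. Its log2 ratio was -2.65 in both libraries (fitted SE 0.22), called in 20 of 21 alternatives, and it was -0.70 (adjusted p = 0.376) in cells with at least 4 Rgcc UMIs. In both replicates the Nr2f2-zero cells were themselves below the control library, with log2 ratios of -1.97 (-2.41 to -1.57) and -0.49 (-0.74 to -0.24).

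Gpihbp1, which anchors lipoprotein lipase on capillaries, stood at 183 and 56.4 CPM in Nr2f2-high cells, 555 and 191 CPM in Nr2f2-zero cells and 607 CPM in control cells. The level in Nr2f2-zero cells was near the control library in replicate 1 and below it in replicate 2. In the Nr2f2-high cells of replicate 2, 1 cell held 9 of the 15 UMIs. The fitted log2 ratio was -1.65 (SE 0.29), called in 16 of 20 alternatives.

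Further capillary genes that fell were Tcf15, a transcription factor of fatty acid uptake (-1.53, SE 0.27), the fatty acid carrier Fabp5 (-1.37, SE 0.21, adjusted p = 1.05e-08 by edgeR), Cd300lg (-1.15, SE 0.28), the scaffold gene Slc9a3r2 (-0.87, SE 0.19) and the matrix protein gene Sparc (-0.54, SE 0.12), all as fitted log2 ratios. Fabp5 was called in 20 of 21 alternatives and not on sums per library and sex (adjusted p = 0.0568). Calcrl, the receptor component for adrenomedullin, rose by 1.07 (SE 0.32) and was called in 9 of 21.

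**Figure D4:**
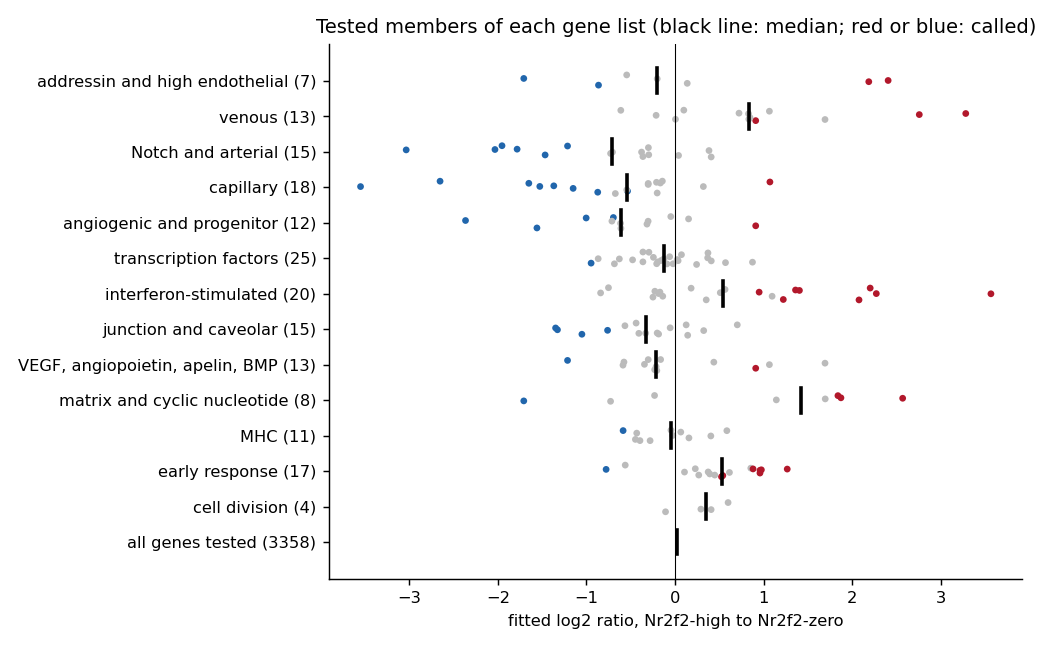
Fitted log2 ratio of Nr2f2-high to Nr2f2-zero cells for every tested member of each gene list, with the number tested in brackets, the median as a black line and called genes in red (higher) or blue (lower). The Notch and arterial list has its median at -0.71, the capillary list at -0.54, the venous list at 0.83 and all tested genes at 0.02.

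Angiogenic and progenitor genes followed the capillary ones. Of 20 listed, 12 were tested, 4 fell (Esm1, Igfbp3, Col4a1 and Col4a2) and 1 rose (Aplnr), with a median log2 ratio of -0.61. The shares called were 33.3% lower and 8.33% higher, against 2.74% and 2.32% over all tested genes. DESeq2 called Esm1 and Igfbp3, and sums per library and sex Igfbp3 alone. Esm1, a proteoglycan of tip cells induced by VEGF, stood at 61.1 and 33.9 CPM in Nr2f2-high, 214 and 314 CPM in Nr2f2-zero and 273 CPM in control cells, a log2 ratio of -2.36 (SE 0.34, adjusted p = 6.46e-10 by edgeR, at most 0.048 over 17 alternatives). Igfbp3, which binds insulin-like growth factors, stood at 304 and 350 CPM, 844 and 1088 CPM and 859 CPM in the same order. Both genes were near the control level in Nr2f2-zero cells and below it in Nr2f2-high cells of each library. The basement membrane chains Col4a1 and Col4a2 fell by 0.70 (SE 0.19) and 1.00 (SE 0.22) on the log2 scale.

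Of 15 tested junction and caveolar genes, 4 fell (Jam3, Esam, Ehd4 and Afdn) and none rose, with a median log2 ratio of -0.33. This is 26.7% called lower, against 2.74% over all tested genes. Jam3 and Esam encode adhesion molecules of endothelial junctions, and Afdn encodes the junction adaptor afadin. Esam, the most abundant of the 4, stood at 910 and 771 CPM in Nr2f2-high and 1538 and 1301 CPM in Nr2f2-zero cells, a log2 ratio of -0.76 (SE 0.16). Ehd4 and Esam were still called with at most 5 UMIs of a gene per cell, while none of the 15 was called by DESeq2 or on sums per library and sex. Among 13 tested genes of VEGF, angiopoietin, apelin and BMP signalling, 1 rose (Aplnr) and 1 fell (Nrp1). This is 7.69% in each direction, against 2.32% higher and 2.74% lower over all tested genes. The main VEGF receptor Kdr gave a log2 ratio of -0.30 (SE 0.21, adjusted p = 0.598).

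A list of 17 matrix and cyclic nucleotide genes had been drawn from earlier results on these same libraries, so its direction is not independent evidence. Of 8 tested, 3 rose (Emilin1, Eln and Fbln2) and 1 fell (Nxpe4). The shares called were 37.5% higher and 12.5% lower, against 2.32% and 2.74% over all tested genes. Emilin1, an elastic fibre glycoprotein, stood at 257 and 230 CPM in Nr2f2-high, 88.2 and 44.8 CPM in Nr2f2-zero and 8.54 CPM in control cells (log2 ratio 1.87, SE 0.41, called in 16 of 21 alternatives). Elastin (Eln) held 1 and 8 UMIs in Nr2f2-zero cells against 128 and 47 in Nr2f2-high cells, and its log2 ratio was 3.99 (1.49 to 9.31) in replicate 1 and 0.98 (-0.12 to 2.27) in replicate 2. None of the 3 was called by DESeq2 or with at most 5 UMIs of a gene per cell.

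MHC genes and genes of cell division showed little difference. Of 11 tested MHC and antigen processing genes, H2-D1 fell by 0.59 (SE 0.12) on the log2 scale and none rose, with a median of -0.05. This is 9.09% called lower, against 2.74% over all tested genes. Of 18 cell division genes, 4 had enough UMIs to be tested and none was called. In the 3 genes held to mark lamina propria capillaries in earlier results (Cldn5, Aqp1 and Cavin1), no call was made either. Ccl21a was the 1 call among 3 tested lymphatic markers. Of 3 tested pericyte markers Rgs5 was called lower, but it held 43 and 18 UMIs in the Nr2f2-high and Nr2f2-zero cells of replicate 1 and 2 and 0 in replicate 2, which is no shared direction. The 1 tested epithelial marker was not called.

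Apoe, an apolipoprotein, was called higher in 20 of 21 alternatives and not on sums per library and sex (adjusted p = 0.174). It stood at 1677 and 1426 CPM in Nr2f2-high, 832 and 426 CPM in Nr2f2-zero and 513 CPM in control cells, a log2 ratio of 1.32 (SE 0.18, adjusted p = 5.44e-11 by edgeR). Among the lower genes, the cystatin gene Cst3 stood at 1056 and 1091 CPM in Nr2f2-high, 2760 and 3162 CPM in Nr2f2-zero and 1482 CPM in control cells. Here the Nr2f2-zero cells, and not the Nr2f2-high ones, lay farther from the control library. The tetraspanin gene Cd81 stood at 1001 and 896 CPM, 1802 and 2029 CPM and 1739 CPM in the same order.

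The remaining genes of the 12 largest increases were sparse in Nr2f2-zero cells and passed the limit of 50 UMIs through their UMIs in Nr2f2-high cells. Insr, the insulin receptor gene, held 66 and 34 UMIs in Nr2f2-high cells and 1 and 1 in Nr2f2-zero cells, with log2 ratios of 3.04 (0.51 to 8.36) and 3.51 (0.94 to 8.86). Amigo2, an adhesion protein gene, held 50 and 46 against 1 and 2, with ratios of 2.64 (0.09 to 7.97) and 2.95 (1.01 to 6.04). Both were still called with at most 5 UMIs of a gene per cell. No compared cell held more than 3 Insr or 4 Amigo2 UMIs, so this limit left their counts unchanged and is no separate check. Ehd3, an endocytic recycling gene, held 92 and 60 UMIs against 1 and 6, and 2200002D01Rik 111 and 87 against 4 and 9. Osgep (55 and 22 against 1 and 2) and Dpysl3 (88 and 22 against 2 and 2) stood near the control level in the Nr2f2-high cells, at 81.2 and 89.7 CPM in the control library, so for them the Nr2f2-zero sums were the low ones. Osgep was called in 4 of 13 alternatives and Dpysl3 in 6 of 16.

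Lbp, the lipopolysaccharide binding protein gene, held 48 and 21 UMIs in Nr2f2-high cells and 0 in the Nr2f2-zero and control cells. Cells with 1 and 2 Nr2f2 UMIs also held some, with 1 and 9 Lbp UMIs in replicate 1 and 2 and 3 in replicate 2. Against a floor of 3 counts in each Nr2f2-zero sum it was at least 1.99-fold higher in replicate 1 and at least 2.35-fold higher in replicate 2. Lbp passed the limit of 50 UMIs through the Nr2f2-high cells alone and was named after its values were seen.

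Among the 12 largest decreases, Rrad, a small GTPase gene, rested on 1 cell, which held all 18 UMIs of the Nr2f2-zero cells of replicate 1. Ptprr, a phosphatase of MAP kinases, stood at 59.5 and 82.8 CPM in Nr2f2-high, 328 and 258 CPM in Nr2f2-zero and 273 CPM in control cells (log2 ratio -2.10, SE 0.31, called in 16 of 19 alternatives). The filamin regulator gene Rflnb stood at 103 and 56.4 CPM, 340 and 235 CPM and 619 CPM in the same order. Magix had 36.0 and 37.6 CPM in Nr2f2-high and 126 and 135 CPM in Nr2f2-zero cells, from 10 and 12 UMIs in the latter.

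To see whether levels moved with the amount of Nr2f2 and not only across the limit of 3 UMIs, gated cells were split by Nr2f2 UMIs. In replicate 1, Madcam1 stood at 239 CPM in cells with 0, 786 with 1, 1398 with 2, 1313 with 3 to 4, 1829 with 5 to 7 and 2214 with 8 or more Nr2f2 UMIs. In replicate 2 it stood at 807, 1839, 2359, 2691, 3207 and 2460 CPM. Most of the increase therefore lay below the limit, between 0 and 2 UMIs. The cells just outside (2 UMIs) and just inside the limit (3 to 4) had overlapping counting intervals in both libraries, 1176 to 1650 and 1150 to 1492 CPM in replicate 1 and 2074 to 2672 and 2432 to 2970 CPM in replicate 2.

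Lrg1 had the same form, at 37.8, 434, 829, 548, 915 and 1451 CPM in replicate 1 and 314, 1080, 1881, 1867, 2974 and 3223 CPM in replicate 2. Cxcl10 stood at 12.6, 203, 99.8, 408, 566 and 455 CPM and at 179, 717, 879, 1799, 1886 and 1213 CPM. These genes kept higher values beyond the limit than just below it in most steps, but the values did not rise at every step.

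Cxcl12 fell off along the same axis, from 1424 CPM at 0 Nr2f2 UMIs through 664, 349, 218 and 119 to 111 CPM in replicate 1. In replicate 2 it stood at 841, 675, 411, 109, 122 and 347 CPM, where the last value came from 10 cells. Gpihbp1 stood at 555, 393, 270, 251, 188 and 116 CPM in replicate 1 and at 191, 114, 162, 74.9, 44.4 and 0 CPM in replicate 2. Hey1 was at 164 and 149 CPM with 0 and 1 Nr2f2 UMIs in replicate 1 and between 10.1 and 49.9 CPM above that. In replicate 2 it stood at 112, 125, 95.5, 40.9, 33.3 and 104 CPM, the last from 3 UMIs in 10 cells. Depth rose along these steps too, from a median of 2117 to 2984 UMIs per cell in replicate 1 and from 2176 to 2820 in replicate 2.

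**Figure D5:**
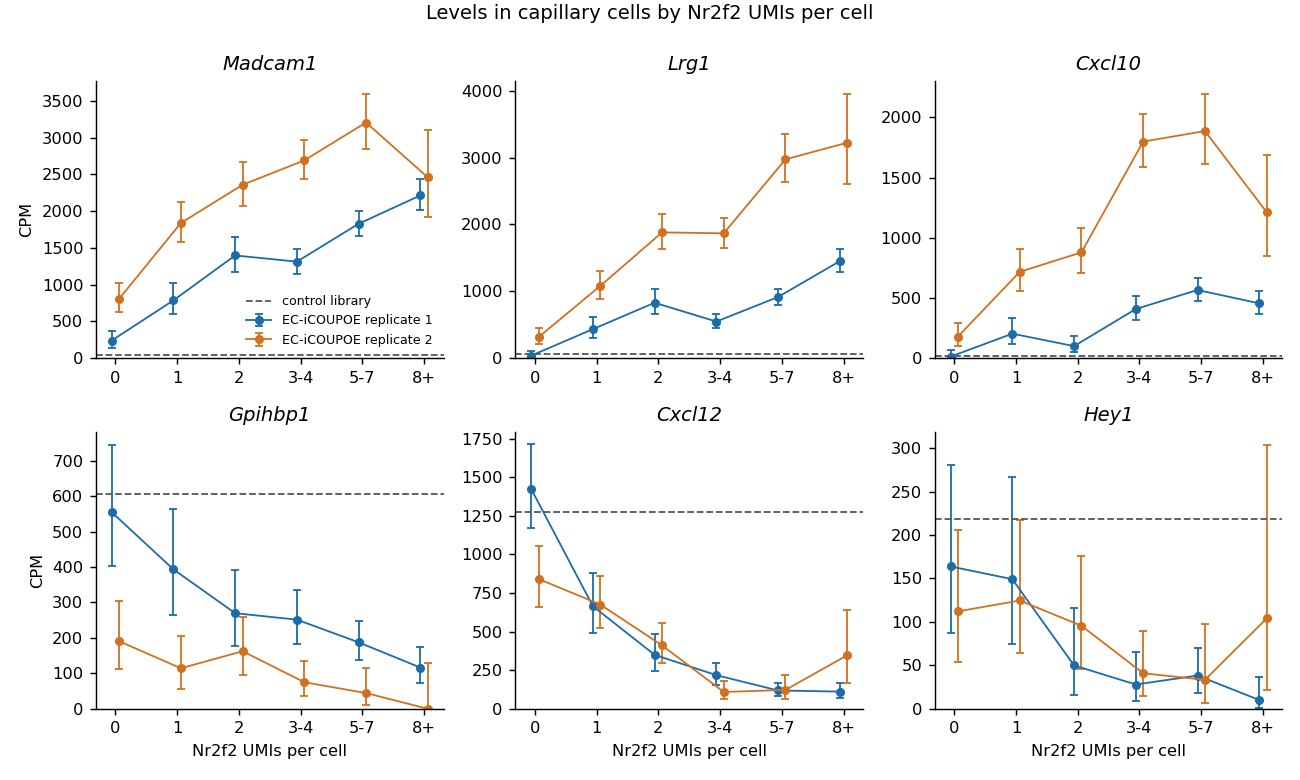
CPM of 6 genes in gated capillary cells by Nr2f2 UMIs per cell, in EC-iCOUPOE replicates 1 (blue) and 2 (orange), with 95% Poisson intervals and the level of control cells without Nr2f2 as a dashed line. Madcam1 lies above the dashed line at every step and is higher at 2 than at 0 Nr2f2 UMIs in both libraries, and Cxcl12, Gpihbp1 and Hey1 drop away from it in replicate 1.

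Set against the control library, which is a single library and allows no test, the 2 groups of cells lay apart in different ways. For Notch and arterial genes the median log2 ratio to the control was -0.79 and -0.83 in the Nr2f2-high cells of replicates 1 and 2, and -0.02 and 0.32 in the Nr2f2-zero cells. For capillary genes it was -0.38 and -0.56 in Nr2f2-high and 0.19 and 0.13 in Nr2f2-zero cells. For venous genes it was 1.04 and 0.79 in Nr2f2-high and 0.09 and 0.53 in Nr2f2-zero cells. In these lists the Nr2f2-zero medians were the nearer ones to the control library in both replicates.

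Madcam1 exceeded the control cells without Nr2f2 in both groups, as did Nxpe4 by the values given above. Emilin1 and Socs1 also had higher values in both groups, but from few UMIs in Nr2f2-zero and control cells. Emilin1 held 7 and 4 UMIs in Nr2f2-zero and 2 in control cells. Socs1 held 3 and 4 against 2, with log2 ratios of 2.15 (-0.98 to 5.73) and 2.39 (-0.41 to 5.86). Both Socs1 intervals reached no change. For Madcam1 the log2 ratio to these control cells was 5.55 and 6.21 in the Nr2f2-high cells, and 2.64 (1.42 to 3.97) and 4.39 (3.39 to 5.58) in the Nr2f2-zero cells. Early response genes had medians of 0.78 and 1.23 in Nr2f2-high and -0.02 and 0.77 in Nr2f2-zero cells, so that replicate 2 was above the control in both groups. The control cells without Nr2f2 also differed in makeup, with 62 female and 6 male cells among those of assignable sex. After thinning, Glycam1, a listed high endothelial gene, was seen in 19.8% of them, against 3.03% and 0% of Nr2f2-zero cells. The part of this makeup in the ratios to the control was not tested. Differences between libraries in mice, day and preparation cannot be told apart from the genotype here.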

How the data were processed

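The authors sequenced sorted Peyer's patch endothelium with a droplet 3′ chemistry (the labels name both a v3 platform and a v2 kit) and counted UMIs against mm10 with Cell Ranger (3.0.2 in the submitters' processing notes, 3.1.0 in the header of replicate 1). The deposited values are raw UMI counts per gene and barcode. All else was computed here with Python 3.11.15, numpy 2.4.6, scipy 1.17.1, pandas 2.3.3 and scanpy 1.11.5 (Scrublet), and in R 4.3.3 with edgeR 4.0.16, limma 3.58.1 and DESeq2 1.42.0. The cells, gene lists and tests were chosen with earlier results of these data known, so the direction of a list is not independent evidence.

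UMIs were summed per library and group, and CPM were taken over these sums without Nr2f2. The 4 sums entered edgeR's quasi-likelihood F test (TMM, library as a term, two-sided, Benjamini-Hochberg over the 3358 genes with at least 50 UMIs), with 1 residual degree of freedom. Both groups of a library come from the same pooled mice, so the library term pairs them by library and not by animal. The share of female cells differed between the groups, so differences between animals can remain in the ratios. Gate genes, Nr2f2 and sex-linked genes were not tested. Intervals are exact at 95% (Poisson, conditional for ratios, Clopper-Pearson for shares) and cover counting error only. Shares were taken after each cell was thinned to 1500 UMIs. On simulated counts, edgeR called 49 of 50 genes raised 4-fold, 18 of 50 raised 2-fold, 27 of 50 lowered to 0.25 and 9 of 50 lowered to 0.5 of their level, and 3 of 3158 unchanged genes. These counts were drawn with the single spread that edgeR had fitted, a coefficient of variation of 0.0859. They hold no genes whose UMIs sit in single cells, so they do not give the rate of false calls in the real data. Scrublet marked 6 of 4750 and 6 of 1243 EC-iCOUPOE cells, too few to count as a working doublet filter, and none in the gate. A gene with 1 UMI stood at 1.57 and 12.6 CPM in the Nr2f2-high and Nr2f2-zero cells of replicate 1.

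Named were Nr2f2, Rgcc, Madcam1, St6gal1, Nkx2-3 and Hey1, the 12 largest increases and 12 largest decreases among called genes by the smaller ratio of the 2 libraries, and called or known members of each list. Gene positions are from GENCODE vM21 (GRCm38), which has the sequence of mm10, and promoters from RefSeq on GRCm38.p6.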

Additional observations from a re-analysis of the deposited data

How the results depend on the processing

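Against 78 genes called higher and 92 lower, other settings gave these counts, higher then lower: DESeq2 7 and 10, limma-voom 45 and 137, total UMIs as the only scaling 54 and 74, DESeq2 size factors in edgeR 72 and 100, no filter on low counts 103 and 57, at least 200 UMIs 48 and 60, a mean of at least 50 CPM 27 and 29, cells thinned to 1500 UMIs 50 and 69, groups taken after thinning 49 and 41, depth-matched cells 48 and 52, cells with 1500 to 2500 UMIs 23 and 40 and with over 2500 UMIs 26 and 29. Limits of 2 and 5 Nr2f2 UMIs gave 64 and 83 and 41 and 51, at least 4 Rgcc UMIs 45 and 40, an Nkx2-3 UMI 51 and 66, no UMI of the excluded types 51 and 63, no markers of other cell types 53 and 68, no doublet calls 78 and 92, and at most 5 UMIs of a gene per cell 11 and 26. Without the library as a paired term (no replicate block), edgeR called 0 and 0, with 183 genes at an unadjusted p under 0.05. Sums per library and sex gave 9 and 14, and the leave-one-out fits on them 0 to 10 higher and 0 to 16 lower, the 0 counts standing for the fit without replicate 2 (70 genes at an unadjusted p under 0.05). Both counting intervals excluded no change for 53 and 74 genes. The limma-voom, mean CPM, 5 UMI and interval settings were chosen after the data were seen. Fewer cells and genes enter several of these settings, and the causes of the other changes were not tested. Madcam1, Nkx2-3, Hey1 and the named genes with the largest increases and decreases kept their sign in every fit above that tested them. Some other genes of the main calls changed sign. With at most 5 UMIs of a gene per cell, 162 of 166 tested genes of the main calls kept it. For groups taken after thinning it was 125 of 126, and for cells with an Nkx2-3 UMI 147 of 148. On sums per library and sex it was 73 of 76 without replicate 1 and 113 of 119 without replicate 2. Depth limits the low genes most, since Nr2f2-zero sums held 79349 and 89194 UMIs.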

Other observations

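The following genes called higher stand in none of the lists and were picked out after their values were seen. Nfkbia, the NF-kB inhibitor, stood at 976 and 2269 CPM in Nr2f2-high and 895 and 1144 CPM in Nr2f2-zero cells (log2 ratio 0.60, SE 0.16), so that its difference lay in replicate 2. Nfkbiz gave a log2 ratio of 1.49 (SE 0.38), the complement inhibitor Serping1 2.05 (SE 0.44), and the transcription factors Cebpb and Cebpd 1.12 (SE 0.36) and 0.90 (SE 0.19). Tinagl1, Timp3 and Slco2a1, the last a prostaglandin carrier, rose by 1.06 (SE 0.19), 0.86 (SE 0.15) and 1.02 (SE 0.21). Nfkbia, Cebpb and Cebpd were not called with at most 5 UMIs of a gene per cell (adjusted p = 0.676, 0.222 and 0.248 by edgeR). Tinagl1 and Slco2a1 were still called with at most 5 UMIs of a gene per cell, at adjusted p = 0.026 and 0.0415 by edgeR.

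Whether the Nr2f2-high to Nr2f2-zero ratio differed between female and male cells was tested on the sums per library and sex. Of 2022 genes none was called by edgeR, with 77 at an unadjusted p under 0.05 and a smallest adjusted p of 0.892. The Nr2f2-zero sums came from 5 female and 11 male cells in replicate 1 and from 11 and 7 in replicate 2. With so few cells the test could miss differences, and no conclusion about sex is drawn from it.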
